A study of Mus musculus with 60 samples.

Results

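Mouse intrahepatic cholangiocyte organoids of the same culture differ widely in size, and 12 organoids of large or small area from 3 cultures were compared here to see which transcripts differed with organoid size. An organoid was taken as large when its area in a bright-field image was 0.37 mm2 or more and as small when it was 0.18 mm2 or less, which gave 6 large and 6 small organoids among the 60 samples of the series. The areas were measured by the study and were not analysed here. Each culture, called a set, was started from the liver of 1 male C57BL/6N mouse aged 3-4 months and was sampled at passage 11 in Set 1 and at passage 3 in Sets 2 and 3. Set 1 gave 2 large organoids and 1 small organoid, Set 2 gave 2 large and 3 small, and Set 3 gave 2 large and 2 small. No gene was altered and no agent was added, so that large and small organoids of a set share the mouse, the passage, the expansion medium and the shaken culture in dilute Matrigel, a basement membrane extract. Only organoids without a dark, necrotic lumen had been picked. The 12 belong to 42 single organoids in the deposited table, of which the study kept 35, and 11 further kept organoids of Sets 1 to 3 had an area between both limits.

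Cholangiocytes line the bile ducts, and in culture they form hollow, polarised spheres of progenitor-like ductal cells that carry keratins, EPCAM and the transcription factor SOX9. Such a sphere grows by cell division and by secretion of ions and water into its lumen, so size reflects both. Cells that sense low oxygen raise glycolysis through hypoxia-inducible factors, cells under mechanical tension move the co-activator YAP into the nucleus, and cells that sense foreign nucleic acid switch on interferon-stimulated genes.

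The 12 libraries differed in depth along with size. Large organoids had total counts from 2244106 to 11175868 with a median of 3551960.5, and small organoids from 1180937 to 1800574 with a median of 1615663. All 6 large libraries were thus deeper than all 6 small ones, although the input had been equalised before pooling. The difference in the mean log2 total was 1.39, with an exact two-sided permutation P-value of 0.00556 for labels exchanged within sets, the smallest that the 180 arrangements allow. Between these 12 organoids, size and depth therefore cannot be told apart, and measurements at equal depth stand beside the results. Mitochondrially encoded transcripts took 2.48–5.07% of the counts in large and 2.96–3.88% in small organoids, a difference of −0.02 percentage points (exact permutation P-value 0.917). After thinning every library to 1180937 counts, 13843–15217 genes were detected in large and 13983–15560 in small organoids (difference of the means −238 genes, exact permutation P-value 0.45).

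**Figure D1:**
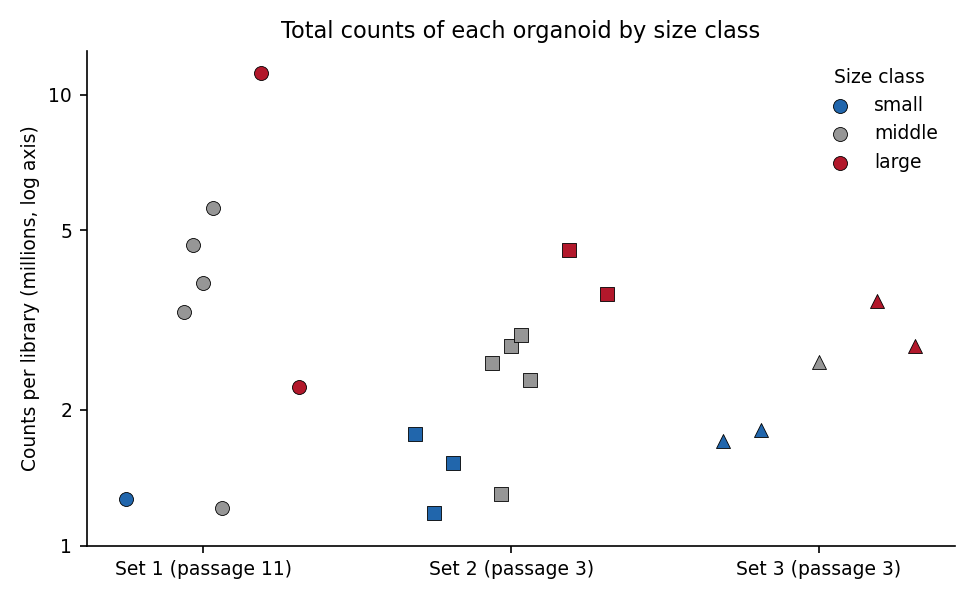
Total counts per library (log axis) for the large, middle and small organoids of Sets 1 to 3, with 1 point per organoid. The 6 large organoids lie between 2244106 and 11175868 counts, above the 6 small ones at 1180937 to 1800574, and the 11 organoids of middle size span 1214403 to 5595426.

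The ductal identity given by the labels was present in every library. Epcam, Krt19, Krt7, Sox9, Spp1 and Cdh1 had counts in all 12. Markers of leukocytes, endothelium and mesenchyme were low: the leukocyte gene Ptprc reached at most 2 counts and the endothelial genes Pecam1 and Stab2 at most 9 and 1, while Col1a1 of mesenchymal cells and Cd79a of B cells reached at most 1 and Cd3e and Ms4a1 had none. The macrophage gene Csf1r had 2–17 counts in all 12 libraries, and Cd68 at most 16 counts, in 11 libraries. The summed macrophage list was 1.82–5.83 CPM (counts scaled to a common library size) in large and 2.57–7.38 CPM in small organoids. Hepatocyte genes were unequal: Alb and Apoa1 reached at most 15 and 7 counts, whereas Fah had 20–70, Hnf4a 29–440 and Ttr 1095–17922 counts, each in all 12 libraries. The summed hepatocyte list was 1390–2630 CPM in large and 1650–2380 CPM in small organoids. In bulk RNA of a whole organoid, fewer cells of a type and less RNA per cell cannot be told apart.

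One library stood apart from the rest. The small organoid 6 of Set 2, also the shallowest library, lay 0.867 log2 units (root mean square over genes) from the other organoids of its set, against 0.458–0.699 for the other 11 organoids compared (the middle-size organoid 2 of Set 2, not compared here, had 0.888). Its level of Actb, cytoplasmic actin, was 1140 CPM, against 2950–4620 CPM in the other small organoids. Oasl1, an interferon-induced gene, stood at 462 CPM there and at 3.55–16.4 CPM in all others. This organoid was singled out after the data were examined, and counts of differing genes are given with and without it. Organoid 1 of Set 1 was the deepest library and also had little Actb, at 1210 CPM.

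No gene differed between large and small organoids when edgeR was run with the set as a block and a threshold of 0.05 for the adj. P-value: of 12030 genes tested, 0% were called higher and 0% lower. The smallest adj. P-value was 0.0558, shared by 12 genes, 9 of them higher and 3 lower in large organoids. Before adjustment, 1005 genes (8.35%) were higher and 802 (6.67%) lower at a P-value below 0.05. All large organoids of each set lay above all small ones of that set for 281 genes (2.34%), and below them for 265 (2.2%). Limma-voom, the method of the study, also called 0 genes (940 higher and 894 lower before adjustment), whereas DESeq2 called 155 higher and 70 lower. All genes called by DESeq2 had an unadjusted P-value below 0.05 in edgeR.

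Without organoid 6 of Set 2, edgeR called 282 genes (2.28%) higher and 140 (1.13%) lower in large organoids, 12.6% and 10.8% of all genes passed in each direction before adjustment, and the biological coefficient of variation, the spread between organoids that counting does not account for, was 0.246 instead of 0.274. Of these, 262 and 134 had an unadjusted P-value below 0.05 with all 12 organoids. When library total was added as a covariate, 0 genes were called both with all 12 organoids and without organoid 6 of Set 2. Library total separates the classes completely, so fits with this covariate cannot tell size from depth. Their size differences are also less precise. Leaving out organoids also changes how many genes are tested, here 12386.

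The genes with the strongest evidence among those higher in large organoids (average log2 CPM of at least 3) include mt-Co3, described with the other respiratory genes, and 5 nuclear genes, none of which was called with all 12 organoids. Aes, a Groucho-family co-repressor of Notch and Wnt transcription (chr10:81559488-81566362, + strand), had 228, 276 and 443 CPM as the lowest, median and highest large organoid, and 86.7, 104 and 174 CPM in small ones. The classes did not overlap. Its log2 fold change was 1.35 ± 0.22 (SE, n = 6 and 6, adj. P-value 0.0558 in edgeR) and 1.33 without organoid 6 of Set 2 (adj. P-value 0.0119). Ube2m, the enzyme that hands NEDD8 to cullins (chr7:13035120-13038275, − strand), spanned 153, 166 and 244 CPM in large and 59.1, 80 and 140 CPM in small organoids, again without overlap (log2 fold change 1.07 ± 0.21). Btf3, a subunit of the complex that binds nascent proteins at the ribosome (chr13:98309896-98317006, − strand), had 128, 192 and 221 CPM against 58.7, 82.3 and 121 CPM. It too was separated in all 12 organoids, with a log2 fold change of 1.07 ± 0.22 (adj. P-value 0.0728). Ppp1r14b, an inhibitor of protein phosphatase 1 (chr19:6974968-6977324, + strand), had 201, 299 and 450 CPM against 98.3, 118 and 204 CPM and Mtch1, a carrier-like protein of the outer mitochondrial membrane (chr17:29332072-29347934, − strand), 97.3, 159 and 193 CPM against 50.4, 74.9 and 101 CPM. In both, large and small organoids were separated within every set, while the lowest large organoid overlapped with small organoids of another set. Without organoid 6 of Set 2, the adj. P-values of Mtch1, Ppp1r14b, Ube2m and Btf3 were 0.0194, 0.0199, 0.0198 and 0.0194.

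The corresponding 6 genes lower in large organoids were not called either. Gata5, a zinc-finger transcription factor of endoderm (chr2:180325133-180334699, − strand), had 43.5, 47.6 and 90.7 CPM in large and 59, 114 and 171 CPM in small organoids, a log2 fold change of −1.11 ± 0.22 (adj. P-value 0.0558 in edgeR, 0.0194 without organoid 6 of Set 2). Every large organoid lay below the small ones of its own set. Orc2, a subunit of the origin recognition complex that marks where DNA replication starts (chr1:58462771-58505109, − strand), had 45.2, 66 and 109 CPM against 97.8, 123 and 142 CPM (−0.86 ± 0.19, adj. P-value 0.0931). Apoe, the apolipoprotein that carries cholesterol (chr7:19696109-19699188, − strand), had 43.9, 66.4 and 82.3 CPM against 81.1, 124 and 177 CPM (−0.91 ± 0.21, adj. P-value 0.0972). In both genes 1 large organoid reached into the range of the small ones, organoid 1 of Set 3 for Orc2 and organoid 5 of Set 1 for Apoe. Prl2c3, a member of the prolactin family known as proliferin, had 7.9, 17.9 and 23.4 CPM in large and 22.6, 45.8 and 86.9 CPM in small organoids (−1.28 ± 0.25). Its paralog Prl2c2 on the same chromosome had −1.44 ± 0.33, and since their transcripts are nearly identical the split of counts between both is uncertain. Lmntd2, which encodes a protein with a lamin tail domain (chr7:141209992-141214080, − strand), had 7.19, 12.5 and 19.6 CPM against 19, 33.3 and 54.5 CPM (−1.36 ± 0.26, adj. P-value 0.0558). Without organoid 6 of Set 2, the adj. P-values of Lmntd2, Prl2c3, Prl2c2, Orc2 and Apoe ranged from 0.0194 to 0.0368. Over the alternative settings, log2 fold changes ranged from −1.62 to −0.50 for Lmntd2, −1.46 to −0.38 for Prl2c3 and −1.65 to −0.37 for Prl2c2. Apoe had −1.12 to −0.33, Orc2 −0.97 to −0.73 and Gata5 −1.31 to −0.98. These 6 genes were called in 3 (Prl2c2) to 6 (Prl2c3) of the settings.

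**Figure D2:**
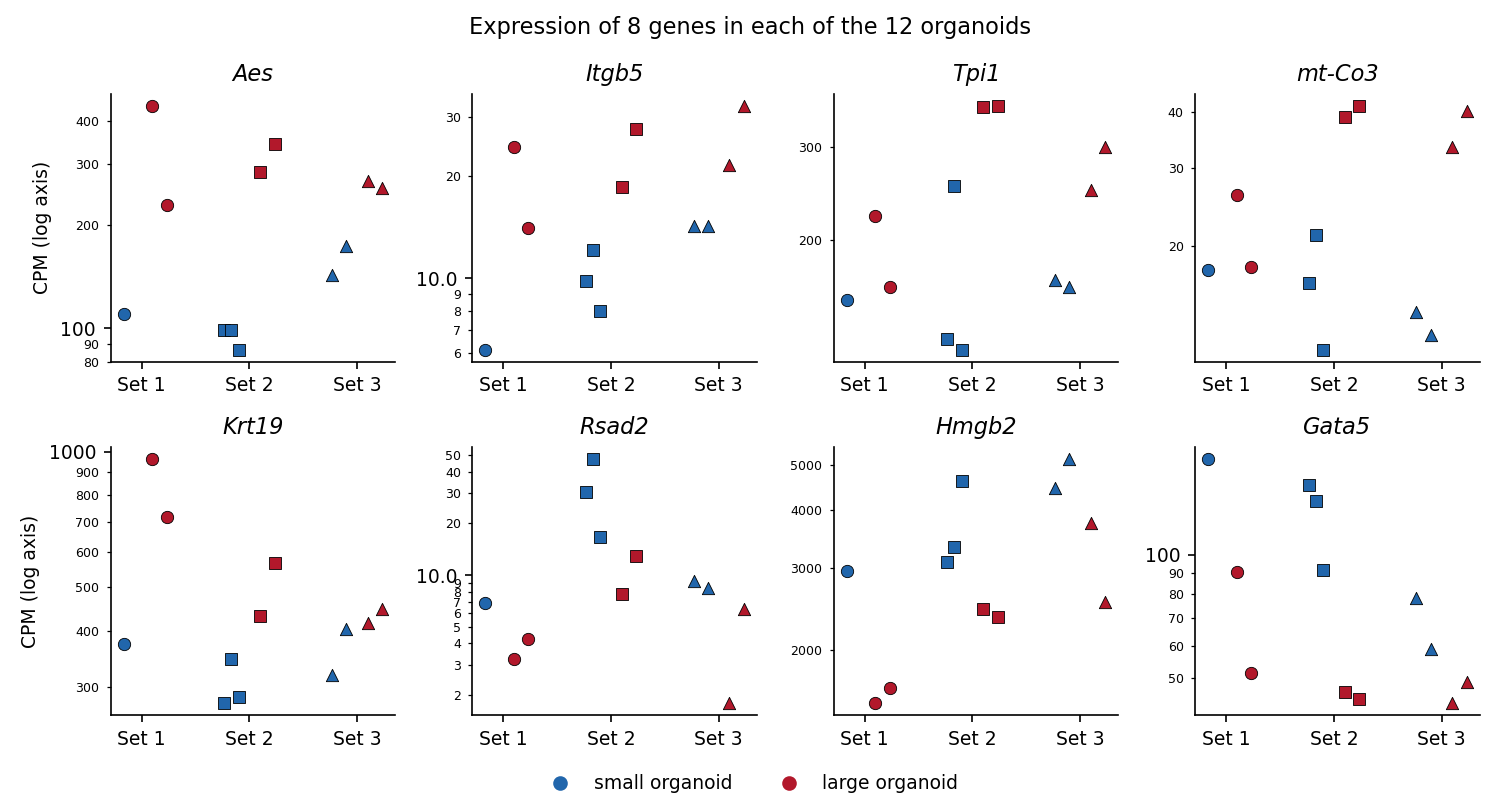
Normalised expression in CPM (log axes) of 8 genes in each large and small organoid, 1 point per organoid, by set. For Aes, Itgb5, Tpi1, mt-Co3 and Krt19 the large organoids of each set lie above its small ones, and for Rsad2, Hmgb2 and Gata5 they lie below.

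Glycolysis, which turns glucose into pyruvate and lactate, had higher values in large organoids for each of its members with all 12 organoids. The 16 glycolytic genes tested all had a log2 fold change above 0 (13 after thinning to equal depth), against 49.1% of all genes, with a median of 0.49 against −0.01 for all genes. At an unadjusted P-value below 0.05, 8 were higher and 0 lower, beside the 8.35% and 6.67% of all genes, and 0 were called after adjustment. These 8 include both Eno1 (0.59) and Eno1b (0.54), which were counted separately. Tpi1, triosephosphate isomerase, had 163, 274 and 360 CPM in large and 124, 158 and 253 CPM in small organoids, and Gpi1, which turns glucose-6-phosphate into fructose-6-phosphate, 161, 193 and 288 CPM against 103, 117 and 156 CPM. Gpi1 did not overlap between classes, and Tpi1 was separated within each set but overlapped between sets. Their log2 fold changes were 0.79 ± 0.21 and 0.74 ± 0.20 (adj. P-value 0.121 for both). Aldoa, the aldolase that splits fructose bisphosphate, had 441, 719 and 1060 CPM against 316, 400 and 616 CPM (0.80 ± 0.22, adj. P-value 0.122). Ldha, which makes lactate, and Gapdh were at log2 fold changes of 0.02 ± 0.22 and 0.11 ± 0.19. When organoid 6 of Set 2 was left out, 10 of the 16 were higher before adjustment, against 12.6% of all genes, and Tpi1 (0.91, adj. P-value 0.0225), Gpi1 (0.78, 0.0332), Aldoa (0.86, 0.0338) and the phosphoglycerate kinase Pgk1 (0.83, 0.0475) rose at an adj. P-value below 0.05. The median of the list was 0.43 after thinning to equal depth and 0.58 with library total as a covariate. With that covariate 5 of 16 were higher before adjustment, against 3.58% of all genes. Tpi1 then had 0.79, as without the covariate, while its unadjusted P-value in edgeR was 0.0377 instead of 0.00122. Gpi1 at 0.31 (0.293) and Aldoa at 0.53 (0.152) no longer passed.

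In the wider hypoxia response, of 26 genes tested, 24 had a log2 fold change above 0 with a median of 0.28, and 4 were higher and 0 lower before adjustment, against 8.35% and 6.67% of all genes. These 4 were Slc16a3, the lactate exporter (1.14 ± 0.45), P4ha1, a collagen prolyl hydroxylase (0.81 ± 0.35), Car9, a carbonic anhydrase at the cell surface (0.63 ± 0.30), and Pdk1, a kinase that inhibits pyruvate dehydrogenase (0.61 ± 0.27). None was called, and after thinning to equal depth none of the 25 members tested passed before adjustment in either direction, against 4.84% of all genes higher and 5.28% lower. Without organoid 6 of Set 2 the counts were 5 higher and 0 lower, against 12.6% and 10.8% of all genes. Vegfa and the glucose transporter Slc2a1, both classical hypoxia targets, had −0.07 ± 0.31 and 0.28 ± 0.24. The values of Slc16a3 were unequal between sets. Its 2 large organoids of Set 2 had 20.5 and 14.6 CPM against 2.57–5.05 CPM in the small ones of that set, whereas in Set 3 the large had 2.4 and 5.68 CPM against 4.9 and 6.32 CPM. The set-by-size term of Slc16a3 had an unadjusted P-value of 0.00668 and an adj. P-value of 1.

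Promoter windows of the glycolytic genes were searched for the core of the hypoxia response element, the letters ACGTG or GCGTG on either strand. Windows reached from 250 bases before to 50 bases after the start (RefSeq, GRCm38.p6), and 13 of 15 genes with a window, or 20 of 26 windows (76.9%), held it, as did 43.8% of all 32851 windows. Pgk1 is shown as a member with 2 matches (chrX:106186850-106187149, + strand, core in capitals), and Tpi1 as the member with the smallest P-value, without a match in its window (chr6:124814109-124814408, − strand, no capitals). A match is a run of letters and no measure of binding.
Pgk1: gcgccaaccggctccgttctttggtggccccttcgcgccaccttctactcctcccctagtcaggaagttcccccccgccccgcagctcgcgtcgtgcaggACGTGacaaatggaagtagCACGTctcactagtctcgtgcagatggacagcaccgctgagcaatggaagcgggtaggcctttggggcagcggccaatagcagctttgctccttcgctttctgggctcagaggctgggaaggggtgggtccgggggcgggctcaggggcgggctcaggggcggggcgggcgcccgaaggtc
Tpi1: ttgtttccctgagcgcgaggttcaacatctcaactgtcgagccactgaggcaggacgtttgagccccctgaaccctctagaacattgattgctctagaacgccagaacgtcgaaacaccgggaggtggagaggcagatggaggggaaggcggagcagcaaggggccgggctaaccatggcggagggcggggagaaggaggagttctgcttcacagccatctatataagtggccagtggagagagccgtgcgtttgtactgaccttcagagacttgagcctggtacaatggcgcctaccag

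Genes of oxidative phosphorylation, the respiratory chain and ATP synthase that lie downstream of glycolysis, had log2 fold changes mostly above 0 in both genomes, whereas their summed levels had like medians in both classes. The sum was 22600–38800 CPM (median 24400 CPM) in large and 20700–41500 CPM (median 24400 CPM) in small organoids for the mitochondrial genes, and 21200–33700 CPM (median 23000 CPM) against 18800–38100 CPM (median 22600 CPM) for the nuclear ones. Of 12 genes tested in the mitochondrial genome, 11 had a log2 fold change above 0 (median 0.54). There were 5 higher and 0 lower before adjustment, beside 8.35% and 6.67% of all genes. The complex I subunit mt-Nd1 had 2960, 5800 and 8160 CPM in large and 2680, 2930 and 5760 CPM in small organoids (0.84 ± 0.24, adj. P-value 0.133). Large organoids of each set exceeded its small ones, and the 5760 CPM were those of organoid 6 of Set 2. Without it, 7 of 12 were higher before adjustment, against 12.6% of all genes. In that fit mt-Nd1 (1.01), mt-Co3 (1.21) and mt-Atp6 (1.52) rose, each at an adj. P-value of 0.0194. With all 12, mt-Co3, a subunit of cytochrome c oxidase, had 17.9, 36.1 and 41.3 CPM against 11.7, 15.3 and 21.2 CPM (1.15 ± 0.23, adj. P-value 0.0611). In contrast, mt-Cytb had −0.19 ± 0.25 and mt-Nd4 0.07 ± 0.25, with overlapping classes. The counts of mt-Co3, mt-Co2 and mt-Atp6 are uncertain, since near-identical pseudogenes on chromosome 1 took counts as well: Gm28438 and Gm28437 had log2 fold changes of 1.09 and 0.94.

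Of 72 nuclear genes of the same machinery, 61 had a log2 fold change above 0 with a median of 0.17, and 9 were higher and 1 lower before adjustment, beside 8.35% and 6.67% of all genes. Ndufa4, a subunit of cytochrome c oxidase, led the list with 322, 448 and 818 CPM in large and 154, 206 and 406 CPM in small organoids (1.12 ± 0.27, adj. P-value 0.0972). Organoid 6 of Set 2 was again the highest small organoid, and without it 19 were higher and 0 lower before adjustment, beside 12.6% and 10.8% of all genes. Ndufa4 (1.33), Atp5b (0.78) and Atp5e (0.68), the latter both parts of the ATP synthase, then rose at adj. P-values of 0.0194, 0.0395 and 0.0398. The exception in the other direction was Atp5d, at −0.45 ± 0.21. After thinning, 51 of the 72 lay above 0, with 4 higher and 1 lower before adjustment, beside 4.84% and 5.28% of all genes. With library total as a covariate, none of the 72 genes passed the unadjusted threshold, while the median was 0.16. Of all genes, 3.58% were higher and 3.95% lower in that fit.

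Cytosolic ribosomal protein genes, whose products form the translating ribosome, had values above 0 in 71 of 77 (median 0.33). Before adjustment 17 were higher and 0 lower, beside 8.35% and 6.67% of all genes. Together the 77 genes made up 159000–246000 CPM in large organoids with a median of 195000 CPM, and 135000–267000 CPM in small ones with a median of 144000 CPM. The value of 267000 CPM belonged to organoid 6 of Set 2. Rpl28, the member with the smallest P-value, had 1840, 2280 and 3220 CPM against 1100, 1250 and 2050 CPM (0.75 ± 0.23, adj. P-value 0.155), the highest small value being that same organoid. In its absence 56 of 77 were higher before adjustment, against 12.6% of all genes, and 19 rose at an adj. P-value below 0.05, among them Rpl28 (0.91, adj. P-value 0.0194), Rps4x (1.26, 0.0298) and Rpl34 (0.81, 0.0332), and the median was 0.53. With library total as a covariate, 0 of 77 passed the unadjusted threshold and the median was 0.18. The shares of all genes with that covariate were 3.58% higher and 3.95% lower.

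Among 31 ductal and progenitor genes, 20 had a log2 fold change above 0 with a median of 0.11. There were 5 higher and 0 lower before adjustment, beside 8.35% and 6.67% of all genes. Of the 5, 4 were the simple-epithelial keratins Krt19, Krt7, Krt8 and Krt18. Krt23, another keratin of the list, lay on the other side at −0.34 (unadjusted P-value 0.12 in edgeR). Krt19 had 417, 507 and 964 CPM in large and 277, 334 and 405 CPM in small organoids, so the classes did not overlap (0.65 ± 0.20, adj. P-value 0.159). The keratins that build intermediate filaments with it had 0.51 ± 0.20 for Krt7, 0.53 ± 0.21 for Krt8 and 0.46 ± 0.21 for Krt18. Tspan8, a tetraspanin of gut and duct epithelium, was the fifth, with 99.4, 179 and 482 CPM against 73.2, 103 and 184 CPM (0.68 ± 0.23). Leaving out organoid 6 of Set 2, 5 were higher and 2 lower before adjustment, close to the 12.6% and 10.8% of all genes in that fit, and Krt19 (0.69, adj. P-value 0.0466) and Tspan8 (0.81, 0.0406) rose. Epcam, Sox9, Spp1 and Notch2, which define the lineage, had values of −0.01 ± 0.27, 0.03 ± 0.29, 0.15 ± 0.24 and −0.50 ± 0.30 with overlapping classes. Krt19 had a log2 fold change of 0.37 with library total as a covariate.

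Attachment and transport genes varied one by one. Itgb5, the beta subunit of the vitronectin receptor (chr16:33829665-33949338, + strand), had 14.1, 23 and 32.3 CPM in large and 6.14, 10.9 and 14.2 CPM in small organoids (1.18 ± 0.25, adj. P-value 0.0748; 0.0222 without organoid 6 of Set 2). Jup, plakoglobin of desmosomes and adherens junctions, had 53.4, 59 and 82.2 CPM against 23.8, 36.6 and 52.3 CPM, without overlap (0.82 ± 0.23, adj. P-value 0.129). Itga2, the alpha subunit of a collagen receptor, lay on the other side at −0.71 ± 0.26. Over 27 matrix and integrin genes, 3 were higher and 3 lower before adjustment (median −0.03), and over 26 junction genes 4 were higher and 1 lower (median −0.06). For ion and water transport, which fills the lumen, 3 of 19 were higher and 0 lower (median 0.13). Of all genes, 8.35% were higher and 6.67% lower before adjustment. The water channel Aqp5 had 3.54, 19.6 and 35.7 CPM in large and 3.84, 8.01 and 20 CPM in small organoids (0.99 ± 0.34, adj. P-value 0.194). Its levels overlapped between classes, as did those of the chloride channel Cftr (−0.50 ± 0.45), the chloride importer Slc12a2 (−0.36 ± 0.30) and Aqp1 (0.35 ± 0.43).

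Hepatocyte genes were sparse, with 18 of 46 tested. Of these, 5 had a log2 fold change above 0, with a median of −0.29 (−0.05 with library total as a covariate). Before adjustment 1 was higher and 3 lower, beside 8.35% and 6.67% of all genes. The lower ones included Ttr, a carrier of thyroid hormone (−0.60 ± 0.24), and Fah, the last enzyme of tyrosine breakdown (−0.68 ± 0.29), and the transferrin gene Trf stood opposite at 0.68 ± 0.28. Fah had 7.09, 9.87 and 15.8 CPM in large and 10.9, 15.7 and 38.4 CPM in small organoids, where the highest was organoid 6 of Set 2 (−0.46 without it). Hnf4a and Alb overlapped between classes, at 0.23 ± 0.24 and −0.74 ± 0.43. Among 24 genes of xenobiotic metabolism, 1 was higher and 0 lower: Cyp2j6, a monooxygenase of fatty acids (0.69 ± 0.23, adj. P-value 0.176).

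**Figure D3:**
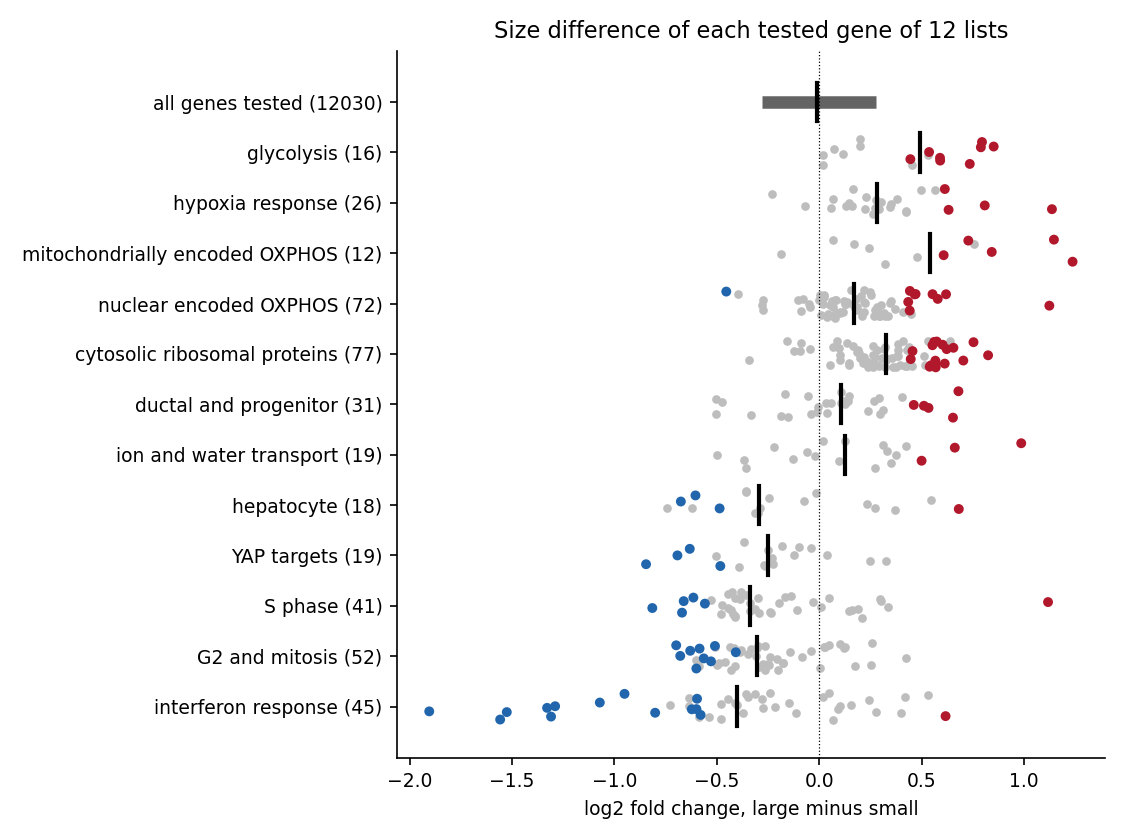
Log2 fold changes between large and small organoids for the members of 12 gene lists, 1 point per gene, coloured where the unadjusted P-value was below 0.05, with a black bar at each list's median and the interquartile range of all genes for reference. Medians run from −0.40 for the interferon response to 0.54 for the mitochondrially encoded respiratory genes, with glycolysis at 0.49.

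Proliferation genes had values on the negative side. In S phase, when DNA is copied, 10 of 41 genes had a log2 fold change above 0 (median −0.34), with 1 higher and 5 lower before adjustment. In G2 and mitosis these were 11 of 52 (median −0.30), with 0 higher and 9 lower. Of all genes, 49.1% lay above 0, and 8.35% were higher and 6.67% lower before adjustment. Hmgb2, a chromatin protein abundant in dividing cells, had 1540, 2400 and 3740 CPM in large and 2960, 3880 and 5140 CPM in small organoids (−0.68 ± 0.20, adj. P-value 0.145). Large organoids of each set were below its small ones. The histone mRNA binding protein Slbp had −0.82 ± 0.24, and the DNA repair enzyme Ung, which opposed the list, 1.12 ± 0.33 (adj. P-value 0.145 and 0.134). Mki67 had 123, 243 and 453 CPM against 230, 311 and 421 CPM (−0.26 ± 0.26), and Top2a, Cdk1 and Pcna were at −0.42 ± 0.25, −0.31 ± 0.29 and 0.19 ± 0.21, all with overlap. Without organoid 6 of Set 2, Slbp (−0.90, adj. P-value 0.0364), Hmgb2 (−0.71, 0.0332), the spindle protein Dlgap5 (−0.84, 0.0398) and the heterochromatin protein Cbx5 (−0.63, 0.0422) fell. In that fit 7 of 41 S phase and 14 of 52 G2 and mitosis genes were lower before adjustment, against 10.8% of all genes.

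The medians of both proliferation lists changed sign with library total as a covariate, a fit that cannot tell size from depth, and kept it after thinning. With library total as a covariate, they were 0.22 for S phase and 0.22 for G2 and mitosis, and after thinning −0.32 for both. Without organoid 1 of Set 1, the deepest large library, the medians were −0.22 and −0.21. Hmgb2 had a log2 fold change of −0.63 with the covariate.

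Of 19 YAP targets, 3 had a log2 fold change above 0 (median −0.25). There were 0 higher and 4 lower before adjustment, beside 8.35% and 6.67% of all genes. Myof, a membrane repair protein, had 33.7, 75.6 and 123 CPM in large and 73.7, 107 and 130 CPM in small organoids (−0.63 ± 0.22, adj. P-value 0.196). The others were Tgfb2 (−0.85 ± 0.33), Ccn2 (−0.69 ± 0.29) and Asap1 (−0.48), whereas Ccn1, the other canonical target, had −0.25 ± 0.27. Of 12 Wnt and Lgr5 genes, 3 lay above 0 (median −0.22), with 0 higher and 2 lower: Ascl2, a transcription factor of intestinal stem cells (−0.96 ± 0.34, adj. P-value 0.203), and Ccnd1, cyclin D1 (−0.65 ± 0.27, adj. P-value 0.256). Lgr5 itself had 0.405, 1.17 and 17.1 CPM against 1.05, 2.1 and 8 CPM and gave 0.61 ± 0.55, with organoid 10 of Set 2 above all others. With library total as a covariate, the medians of both lists were 0.03 and 0.02.

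Interferon-stimulated genes had the lowest median of the lists with all 12 organoids. Of 45 tested, 12 had a log2 fold change above 0 and the median was −0.40. Before adjustment 1 was higher and 13 lower, beside 8.35% and 6.67% of all genes. Rsad2, viperin (chr12:26442746-26456452, − strand), had 1.8, 5.33 and 13 CPM in large and 6.91, 12.9 and 47.5 CPM in small organoids (−1.33 ± 0.33, adj. P-value 0.0972). Within each set, its large organoids lay below its small ones. Cmpk2, the neighbouring nucleotide kinase, had 2.02, 4.16 and 10.4 CPM against 3.81, 10.5 and 34.3 CPM (−1.07 ± 0.32), and Ifit1, which binds viral RNA, 3.04, 4.83 and 20.9 CPM against 6.91, 11 and 105 CPM (−1.29 ± 0.43). For all 3 the top value was organoid 6 of Set 2, and the same held for Oasl1 and for Cxcl10, a chemokine, at 61.6 CPM. Without it, the list median was −0.23, with 2 higher and 11 lower, beside 12.6% and 10.8% of all genes. Rsad2 (−1.13, adj. P-value 0.0479) then fell, while Ifit1 had −0.60 (adj. P-value 0.234) and Oasl1 −0.11 (adj. P-value 0.852). Ifi27 was the gene on the other side, at 0.62 ± 0.24. With library total as a covariate, the median of the list was −0.17, with 0 higher and 2 lower, beside 3.58% and 3.95% of all genes. When the 11 middle organoids entered the fit as a class of their own, the excess of lower genes was lost, with 2 higher and 1 lower (median −0.21) beside 7.82% and 4.07% of all genes, and Rsad2 had −0.75 (P-value 0.349 before adjustment).

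The interferon-stimulated response element, the letters GAAA, 2 bases of any kind and GAAA again on either strand, was found in the promoter windows of 19 of 36 genes of the list with a window (19 of 40 windows, 47.5%), and in 3.44% of all 32851 windows. Rsad2 and Ifit1 are shown with the element in capitals, Rsad2 as the member with the smallest P-value (chr12:26456403-26456702, − strand) and Ifit1 for its 2 copies (chr19:34640639-34640938, + strand).
Rsad2: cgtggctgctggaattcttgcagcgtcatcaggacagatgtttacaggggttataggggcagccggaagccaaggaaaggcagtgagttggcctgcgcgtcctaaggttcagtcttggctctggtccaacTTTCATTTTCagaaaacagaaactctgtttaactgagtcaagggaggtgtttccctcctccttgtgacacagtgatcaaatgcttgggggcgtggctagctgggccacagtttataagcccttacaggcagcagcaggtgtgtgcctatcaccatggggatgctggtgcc
Ifit1: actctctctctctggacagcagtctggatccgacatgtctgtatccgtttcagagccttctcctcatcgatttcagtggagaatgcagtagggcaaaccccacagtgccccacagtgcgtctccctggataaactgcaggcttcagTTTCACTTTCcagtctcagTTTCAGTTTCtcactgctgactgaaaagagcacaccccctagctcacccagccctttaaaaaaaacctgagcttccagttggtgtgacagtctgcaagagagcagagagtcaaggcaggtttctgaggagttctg

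Stress and lipid lists lay near the middle of all genes, of which 8.35% were higher and 6.67% lower before adjustment. For the unfolded protein and integrated stress response, 5 of 30 were higher and 2 lower before adjustment (median 0.05). The endoplasmic reticulum chaperone partner Sdf2l1 led it, with 26.8, 48.6 and 83.2 CPM in large and 12.1, 23 and 44.5 CPM in small organoids (0.86 ± 0.23, adj. P-value 0.121), and Atf4, the factor of the integrated stress response, lay at −0.49. The p53 targets had 3 higher and 0 lower of 20 (median −0.13), of which Ei24 did not overlap between classes, with 39.5, 50.7 and 76.4 CPM against 19.7, 32.1 and 39.4 CPM (0.77 ± 0.23). The cyclin-dependent kinase inhibitor Cdkn1a, the best known target, was at −0.37 ± 0.21. In cholesterol and fatty acid synthesis 5 of 33 were higher and 4 lower (median 0.02). Fdps (−0.68 ± 0.22) and Idi1 (−0.73 ± 0.24) of sterol synthesis were lower before adjustment, and Acat2 (0.63 ± 0.22) and the fatty acid desaturase Fads2 (0.64) higher. In the NF-kB and TNF response 3 of 24 were higher and 2 lower (median 0.05), among them Bcl3 (0.64 ± 0.25), and of 19 AP-1 and immediate early genes none passed in either direction (median 0.02). Gut-like secretory genes had 0 higher and 1 lower of 12 (median 0.05), the latter being Spink4, a protease inhibitor of goblet cells (−0.54 ± 0.23).

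The size difference was also tested for being unequal between the sets, which differ in mouse and passage. No gene passed after adjustment in edgeR (smallest adj. P-value 1), and 242 (2.01%) did before adjustment. List medians within Sets 1, 2 and 3 were 0.19, 0.79 and 0.39 for glycolysis, 0.48, 0.70 and 0.40 for mitochondrially encoded respiratory genes, and 0.46, 0.14 and 0.52 for ribosomal proteins. They were −0.78, −0.26 and −0.13 for S phase, −0.56, −0.29 and −0.04 for G2 and mitosis, and −0.44, −0.53 and −0.10 for the interferon response. These 6 lists kept the sign of their median in each set. So did others, among them nuclear respiratory genes (0.03, 0.11 and 0.31) and hepatocyte genes (−0.13, −0.42 and −0.205). The hypoxia median also stayed above 0, but its 0.52 in Set 2 stood beside 0.04 and 0.01 in Sets 1 and 3. In contrast, xenobiotic metabolism changed sign, with 0.57 in Set 1 and −0.245 in Set 2. Set 1 holds only 1 small organoid, so its values rest on that library.

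**Figure D4:**
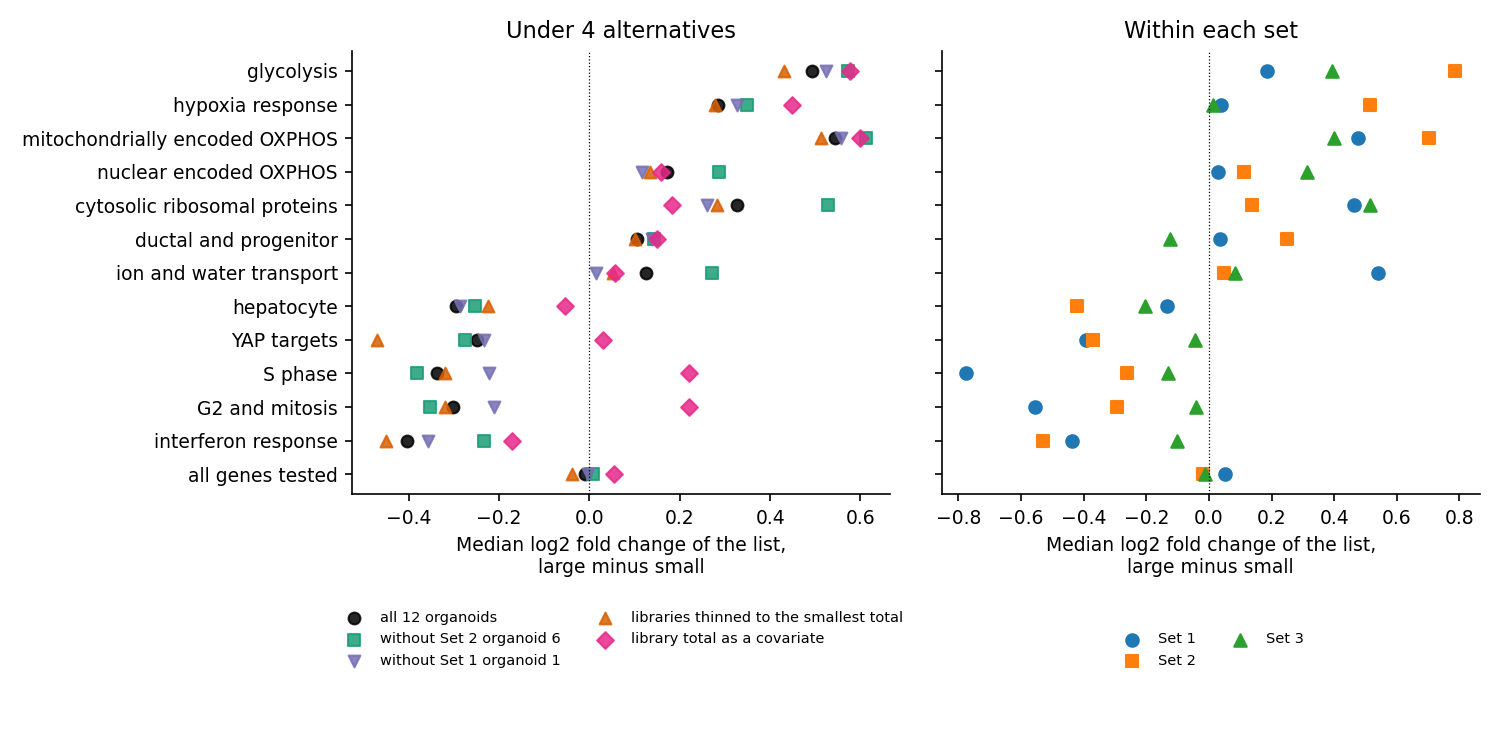
Median log2 fold change of each gene list, on the left with all 12 organoids, without organoid 6 of Set 2, without organoid 1 of Set 1, after thinning and with library total as a covariate, and on the right within each set. Glycolysis stays between 0.43 and 0.58 on the left, while S phase reaches 0.22 with the covariate.

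The 11 organoids of middle size, which are none of the 12, vary in depth within a narrower range of sizes. Whether depth follows size among them too was not tested, as their areas were not analysed here. A slope of log2 expression on log2 total was fitted for each gene in these organoids, with the set as a block. Set 3 is represented by organoid 3 alone, so with that block the slope rests on Sets 1 and 2. The shallowest libraries were organoid 7 of Set 1 (1214403 counts) and organoid 2 of Set 2 (1298591 counts). The latter lay 0.888 log2 units from the rest of its set. The slope was above 0 for 912 of the 1005 genes higher in large organoids (90.7%), against 58.3% of all genes, with a median of 0.27 against 0.05. Of the 802 genes lower in large organoids, 503 (62.7%) had a slope below 0, against 41.7% of all genes. In the middle organoids 0 genes had an adj. P-value below 0.05 for the slope, and 627 an unadjusted one. Aes had a slope of 0.79, Ube2m of 0.54 and Prl2c3 of −0.86, each in the direction of its size difference. The same held for Ppp1r14b (0.66), Mtch1 (0.57), Btf3 (0.55), Lmntd2 (−0.68) and Prl2c2 (−1.26). The unadjusted P-values of these slopes in edgeR ran from 6.66e-05 (Prl2c2) to 0.0303 (Mtch1). Tpi1 (0.19) and Gata5 (−0.19) had smaller slopes in that direction, at unadjusted P-values of 0.432 and 0.457. Rsad2 (0.36) and Apoe (0.54) had slopes in the opposite direction, at 0.664 and 0.399. The slopes of the interferon list were above 0 for 34 of 45 (median 0.31), opposite in sign to its size difference, and those of glycolysis for 9 of 16 (median 0.01). The summed interferon list spanned 830 to 5810 CPM in the middle organoids (median 1660 CPM). Whether a single library sets its slopes was not tested.

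**Figure D5:**
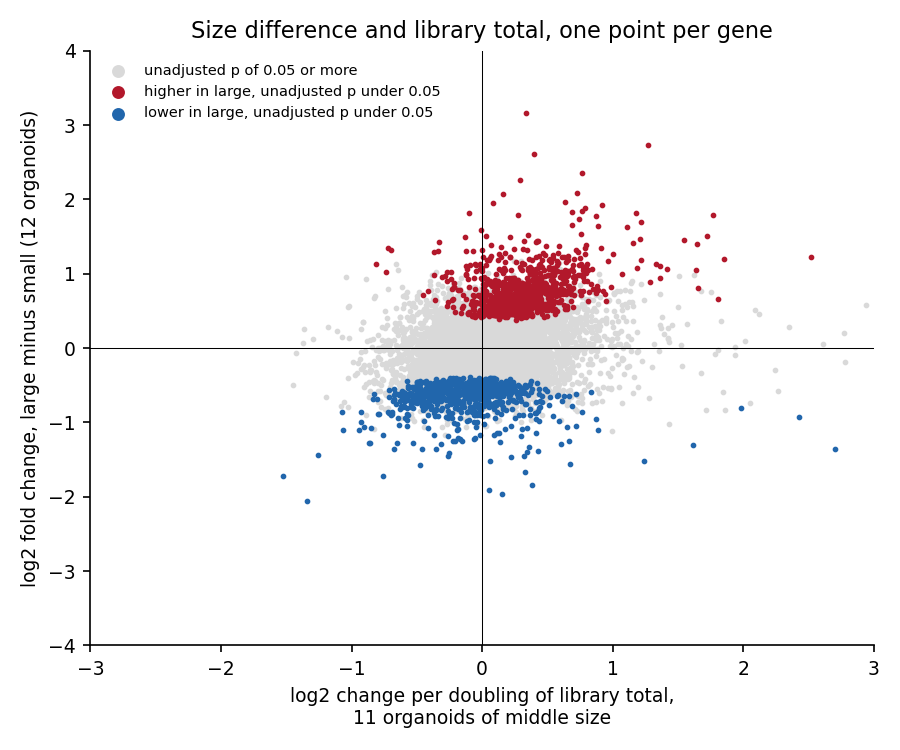
Log2 fold change between large and small organoids (vertical axis) against the slope of expression on log2 library total in the 11 organoids of middle size (horizontal axis), 1 point per gene, with genes at an unadjusted P-value below 0.05 for size coloured. Of the 1005 genes higher in large organoids 90.7% lie at a slope above 0, and of the 802 lower ones 62.7% lie below 0.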

How the data were processed

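RNA of single organoids was sequenced as 3′-end libraries with molecular identifiers, which were attached in reverse transcription before pooling. A qPCR of Actb set the input per organoid, so that Actb is no independent reference. Per the labels and the study's methods, the authors used zUMIs with STAR, SAMtools 1.9 and featureCounts on GRCm38, and the submitters' processing notes name R 3.6.3, edgeR 3.28.1 and limma 3.42.2. The values are the integer counts per gene deposited by the authors. The sources used here do not say whether they are identifiers or reads, or whether they were down-sampled as the methods describe. The table has 28773 genes, of which 42 have no symbol, and 4 libraries of Sets 1 to 3 that the study left out were left out here.

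In R 4.3.3, filterByExpr (minimum count 3) chose the genes to test, libraries were normalised by TMM, and large were compared with small organoids by quasi-likelihood F-tests in edgeR 4.0.16 with set as a term (8 residual degrees of freedom) and Benjamini-Hochberg adjusted P-values at a threshold of 0.05. Standard errors were derived from the F statistic. Log2 fold changes are large minus small, and CPM values are TMM-normalised. One count equals 0.0895 CPM in the deepest and 0.847 CPM in the shallowest library, so low genes carry mostly counting noise. Organoids of a set share 1 mouse and culture, and P-values measure the spread between these organoids. No pair of libraries within a set was equal within sampling noise (chi-square per degree of freedom 2.97–43.3). Library total, mitochondrial share and detected genes were compared by exact permutation tests.

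Size classes, gene lists and tests were chosen with earlier results of these data known. Named were the 6 genes of smallest P-value in each direction at a mean log2 CPM of 3 or more (predicted genes and pseudogenes aside), a set of anchor genes, and the gene of smallest P-value of each list. Others were named after their values were seen. Alternatives were RLE size factors, no filter, a minimum count of 10, limma-voom (limma 3.58.1), DESeq2 1.42.0, thinning, no set term, library total as a covariate, a fit with the middle organoids, Sets 2 and 3 alone and leaving out each organoid. Scripts were tested on simulated data. Gene positions are those of GENCODE M21 (GRCm38), and promoter windows are from RefSeq. Endothelial, mesenchymal and lymphocyte lists had 0 genes tested, and Adgre1, C1qa, Kdr, Cdh5, Col3a1, Dcn and Pdgfrb were not analysed here.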

Additional observations from a re-analysis of the deposited data

Results flagged for a closer look

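In 5 of 122 sets of 6 organoid values checked (named genes and library measures in each class), the highest or lowest organoid lay far from the others, with a gap to its nearest neighbour above Dixon's 95% critical share of the whole range. About 1 in 20 such sets would be marked by chance. Among large organoids, organoid 1 of Set 1, the deepest library, had 90.7 CPM of Gata5 against 43.5–51.6 CPM in the others (gap 0.767 of the range) and 129 CPM of Top2a, the topoisomerase of dividing cells, against 291–445 CPM (0.656). Organoid 11 of Set 2 had 246 CPM of Fdps, an enzyme of the mevalonate pathway, against 120–148 CPM (0.708). Among small organoids, organoid 6 of Set 2 had 37.4 CPM of Hnf4a against 20.9–25.1 CPM (0.69) and 1140 CPM of Actb against 2950–4620 CPM (0.68).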

How the results depend on the processing

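With all 12 organoids, 0 genes were called in either direction under RLE size factors, a minimum count of 10, limma-voom, no set term, library total as a covariate, Sets 2 and 3 alone and a fit with the 11 middle organoids. Other settings gave calls: 229 higher and 34 lower without a filter on low counts, 155 and 70 with DESeq2, 68 and 20 at an adj. P-value below 0.10, and 2 and 0 after thinning with a second random seed (0 and 0 with the first). Leaving out 1 organoid gave 0 to 282 genes higher and 0 to 140 lower. The highest counts came without organoid 6 of Set 2; without organoid 5 of Set 1 they were 8 and 2, without organoid 5 of Set 3, 7 and 1, and without organoid 10 of Set 2, 1 and 0. Without organoid 6 of Set 2 and thinned, 21 and 4 genes were called, and without it and organoid 1 of Set 1, 203 and 160. These combinations, the looser threshold and the second seed were added after seeing the data. Of genes with an unadjusted P-value below 0.05, 55.6% were higher in large organoids, and this share was 67.4% without a filter, 65.8% with the middle organoids and 47.8% after thinning. When 1 organoid was left out, the members with an unadjusted P-value below 0.05 numbered 4 (without organoid 11 of Set 2) to 10 (without organoid 6 of Set 2) for glycolysis, 9 (without organoid 8 of Set 1) to 56 (without organoid 6 of Set 2) for ribosomal proteins, 2 (without organoid 5 of Set 3) to 15 (without organoid 1 of Set 3) for S phase, 2 (without organoid 8 of Set 1) to 18 (without organoid 5 of Set 1) for G2 and mitosis, and 5 (without organoid 11 of Set 2) to 15 (without organoid 9 of Set 2) for the interferon response, counted in the direction of each list. Over all genes, 597 to 1566 were higher and 485 to 1335 lower in these fits at the same threshold. Set-by-size terms had 18 calls without a filter, and 0 with all 12 organoids under RLE size factors, a minimum count of 10, limma-voom and thinning with the first seed and in the fit with the middle organoids. Other settings were not run for them. The cause of these differences was not tested. Library total, mitochondrial share and detected genes kept their side of the threshold, with a difference in log2 total of 1.09 to 1.55 when 1 organoid was left out. Depth limits low genes most: 1 count in the shallowest library is 0.847 CPM. No paired analysis was possible because organoid numbers only name organoids within a set, so the set served as the block.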

Other observations

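Genes higher in large organoids at an unadjusted P-value below 0.05 had shorter transcripts, with a median length of 1984 bases and a GC content of 53.1%, against 3582.5 bases and 46.4% for those lower and 3086 bases and 49.4% for all genes tested. Of 1075 pseudogenes tested, 196 (18.2%) were higher and 67 (6.23%) lower before adjustment, beside 8.35% and 6.67% of all genes. Ribosomal protein genes, whose transcripts are short and which have many pseudogene copies, are among the former. The middle organoids exceeded the 12 in some genes named here: Apoe reached 1550 CPM in 1 of the 11 (median 99.8 CPM), against at most 177 CPM in the large and small organoids.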
